A study of Mus musculus with 4 samples.

Results

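The regions described are 5 kb stretches (bins) of the mouse genome that overlap an exon and whose 5-hydroxymethylcytosine (5hmC) was called altered in LSH knockout mouse embryonic fibroblasts (MEFs), but not in LSH knockout embryonic stem (ES) cells. They were chosen by the authors' own list of differential bins in MEFs. A bin had to be on that list, absent from the ES list, over an exon and away from the 1 kb either side of every gene start. There were 1780 such bins, among 9002 MEF-listed bins and 17148 distinct bins on both lists together. Of the 1887 exon bins of the MEF list, 1780 were absent from the ES list and 107 were shared with it. Both lists are short against all exon bins, so the overlap is not read as a difference between the cell types. Of all 86546 exon bins with sequence on chromosomes 1 to 19 and X, 2.06% were on the MEF list only (exact 95% binomial interval 1.96% to 2.15%). The ES list only held 3.3% of them (2855 bins), and 0.124% (107) were on both lists. An ES listing was thus not rarer among the 1887 MEF-listed exon bins, with 107 shared, than among all exon bins. Over every kind of bin, 1.75% of 511186 were MEF-listed. Among the other kinds of bin, 2.47% of intron bins, 2.29% of promoter bins and 1.18% of intergenic bins were on the MEF list only. Since the list itself chose the bins, these shares are a description and carry no test.

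Cytosine in CpG dinucleotides is methylated by the DNMT enzymes, and TET enzymes oxidise the methyl group to 5hmC, which in mammalian genomes is found largely in gene bodies and enhancers. LSH, encoded by Hells, is a chromatin remodeler of the SNF2 family that is needed for normal DNA methylation. Coding exons are as a rule richer in CpG than the introns around them, so a bin with an exon offers more sites for either mark.

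4 groups were profiled, with 1 library each: LSH knockout MEFs, wild-type MEFs, LSH knockout ES cells and wild-type ES cells. MEFs, connective tissue cells cultured from embryos, grew in DMEM with serum, and the pluripotent ES cells grew with LIF besides. Fragments carrying 5hmC were tagged with an azide-bearing glucose, biotinylated, captured and sequenced. The labels name neither the knockout allele nor the number of embryos or clones. The deposited lists give places only, with no level, fold change, p-value or direction, so no value per library can be shown and "altered" means listed, whether 5hmC was higher or lower. The depth of the libraries is unknown, and neither cell type could be checked against its markers. A bin absent from the ES list was not called there, which does not show that its 5hmC was unaltered in ES cells. Ranges in brackets are exact 95% binomial intervals. They hold the counting error of a share alone, since bins of 1 library are no replicates. Differences between shares were not tested.

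The sequences of 5 coding exons show what lies in these bins. Each belongs to a gene with 5 or 6 such bins. Each is the coding exon of 60 to 300 bases in such a bin with the most CpG dinucleotides, read from NCBIM37 (mm9), 5′ to 3′ on the gene's own strand, with every CpG in capitals. They are the coding part of exon 10 of 10 of Slc1a3 (chr15:8586135-8586339, minus strand), exon 3 of 16 of Rgs3 (chr4:62286131-62286236, plus), exon 8 of 24 of Pdzd2 (chr15:12337015-12337134, minus), exon 7 of 47 of Cacna1c (chr6:118701387-118701583, minus) and exon 21 of 25 of Slc4a8 (chr15:100641025-100641198, plus).
Slc1a3: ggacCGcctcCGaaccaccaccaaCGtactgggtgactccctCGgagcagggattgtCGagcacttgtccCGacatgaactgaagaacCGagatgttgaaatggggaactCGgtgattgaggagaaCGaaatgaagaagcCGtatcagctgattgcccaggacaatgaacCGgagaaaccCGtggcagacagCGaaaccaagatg
Rgs3: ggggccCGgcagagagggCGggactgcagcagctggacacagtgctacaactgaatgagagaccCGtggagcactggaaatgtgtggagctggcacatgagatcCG
Pdzd2: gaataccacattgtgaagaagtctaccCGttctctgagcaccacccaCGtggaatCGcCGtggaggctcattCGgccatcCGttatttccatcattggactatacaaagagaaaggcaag
Cacna1c: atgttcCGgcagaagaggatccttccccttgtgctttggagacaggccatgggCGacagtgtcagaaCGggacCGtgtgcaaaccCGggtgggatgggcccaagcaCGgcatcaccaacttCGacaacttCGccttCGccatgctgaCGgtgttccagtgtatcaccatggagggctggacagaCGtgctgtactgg
Slc4a8: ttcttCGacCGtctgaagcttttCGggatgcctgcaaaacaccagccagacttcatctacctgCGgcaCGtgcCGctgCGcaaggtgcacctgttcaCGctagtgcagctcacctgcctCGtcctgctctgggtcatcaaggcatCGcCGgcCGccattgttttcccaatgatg

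In these 5 exons CpG stood 37.7 to 69.0 times per kb. The whole bins around them had 13.4 to 22.2 CpG per kb. The Slc4a8 exon was the densest, with 12 CpG in 174 bases, and the Rgs3 exon the sparsest, with 4 in 106 bases. The exons were picked for their CpG, so their density is no measure of exons at large. With all bases pooled, the coding bases of the 1780 bins had 31.3 CpG per kb and their other bases 11.7. In all exon bins the pooled values were 25.99 per kb of coding bases and 9.23 per kb of other bases, so both the coding and the non-coding bases of the MEF-only bins were denser than those of exon bins at large. Exons filled 13.1% of the bases of the 1780 bins and coding exons 5.28%, close to the 14.1% and 6.14% of all exon bins. Most of the sequence of an exon bin is thus not exon, and the lists cannot place a change within a bin.

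The gene that came first was Slc1a3, which encodes the glutamate transporter GLAST of glial cells. Of its 7 exon bins, 6 were on the MEF list only, and so were 2 of its intron bins, while no bin of its body was ES-listed. Slc1a3 lies on the minus strand of chromosome 15 (8584124 to 8660764). 3 of its bins touched one another at its 3′ end (chr15:8580001-8595000), with 10.6, 13.4 and 12.4 CpG per kb from the first to the last. The first of these held 877 bases of 3′ UTR and no coding base, and the next held 340 coding bases beside 1134 bases of 3′ UTR. A further pair of touching bins lay in the 5′ part of the gene (chr15:8630001-8640000), and 1 bin stood alone at chr15:8600001-8605000.

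Other genes also had 6 bins. Rgs3, a regulator of G protein signalling (chromosome 4, 62220881 to 62364052), had 6 of 18 exon bins on the MEF list only, plus 2 on both lists and 1 on the ES list only. Pdzd2, a protein with several PDZ domains (chromosome 15, 12286809 to 12669679), had 6 of 21, with 12 MEF-listed intron bins besides, the most of the 15 leading genes. Cacna1c, the pore-forming subunit of the L-type calcium channel CaV1.2 (chromosome 6, 118542314 to 119146249), had 6 of 29, 2 of them touching at chr6:118685001-118695000. Its 6 bins held between 41 and 322 coding bases each and no UTR.

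Genes with 5 bins were Slc4a8, a sodium-driven chloride and bicarbonate exchanger (5 of 10 exon bins), and Plce1, phospholipase C epsilon (5 of 17). They also included Mylk, the smooth muscle myosin light chain kinase (5 of 23), and Adamtsl1, a secreted matrix protein related to the ADAMTS proteases (5 of 24). In Mylk 3 bins touched one another, and the first of these held 1160 coding bases. 8 more genes tied at 4 bins with the last of the 15 leading genes, which were taken first by their share of exon bins. The leading genes with 4 bins were Cpvl, a carboxypeptidase-like gene, Gucy2g, a receptor guanylyl cyclase, and Slc6a6, the taurine transporter, each with 4 of 8 exon bins. The others were Megf6, with EGF-like repeats (4 of 11), the homeobox gene Meis2 (4 of 12) and Enox1 (4 of 16). The 15 genes ran from 42.9 to 604 kb in length. 68 of their 74 bins held coding bases, where 81.7% of the 1780 bins and 86.8% of all exon bins did. 5 of the 74 lay over the last exon of the main transcript, where 22.1% and 23.9% did. The genes were ranked by number of bins, so these counts describe them alone. The CpG density of the 74 bins had a median of 13.3 per kb (6.6 to 26). 12 of the 15 also had MEF-listed intron bins, but only Cacna1c had a MEF-listed promoter bin in its body. Such a bin may surround the start of another gene that overlaps the body. 6 had no ES-listed bin in the body: Slc1a3, Plce1, Mylk, Cpvl, Gucy2g and Meis2. An ES-listed bin in the body was present in 41.7% of the 1508 genes with an exon bin on the MEF list only. Of all 19486 genes with an exon bin, 22.0% had one, so lacking one is no trait particular to these 6.

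**Figure D1:**
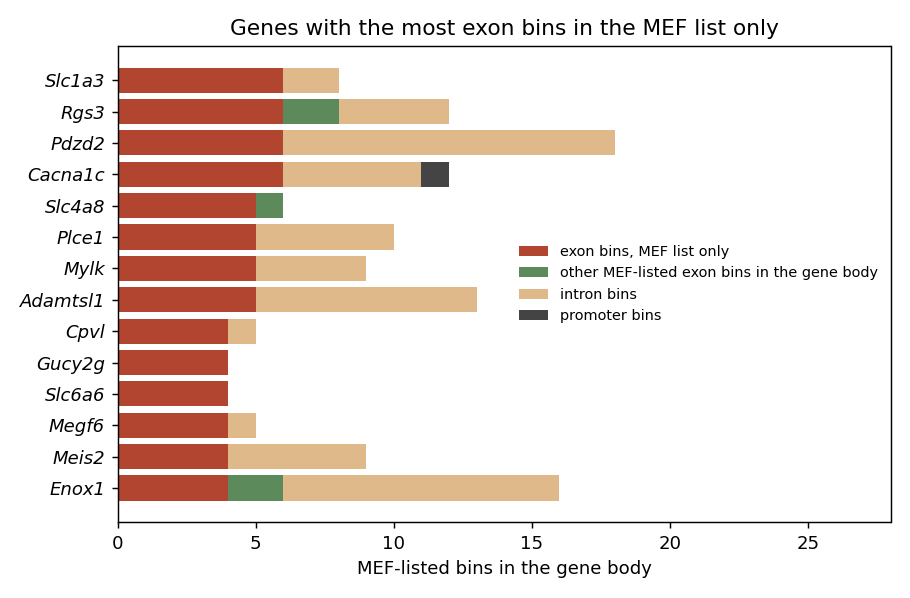
Number of MEF-listed bins in the body of 14 of the 15 leading genes by exon bins on the MEF list only (ties by share), split by the kind of bin. Slc4a8, Gucy2g and Slc6a6 had exon bins alone, while most of the 18 bins of Pdzd2 lay in introns.

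Over all genes, 1508 of the 19486 with an exon bin had at least 1 bin on the MEF list only, or 7.74%. Of the 1508, 1383 were protein-coding, 57 were lincRNA and 68 were processed transcript genes. A single bin was the rule, in 1266 genes, while 172 genes had 2, 46 had 3, 15 had 4, 4 had 5 and 5 had 6. In 867 genes that one bin was the only MEF-listed bin in the body. A MEF-listed intron bin was also present in the body of 468 genes (31.0%, against 7.70% of all 19486) and a MEF-listed promoter bin in 135 (8.95%, against 3.66%). These promoter bins were counted whichever gene's start they surround. An exon bin on the ES list only was found in 362 of the 1508 genes, which is 24.0% of them and 14.1% of the 2571 genes with such an ES bin. Of all 19486 genes, 13.2% had such an ES bin. Any ES-listed bin in the body was present in 629 of the 1508 genes (41.7%), against 22.0% of all 19486. The 1508 genes were longer, with a median of 58.3 kb against 22.5 kb, and the part of length in these shares was not tested. Fgfr2 (4 bins) and Gm20388 (3 bins) were ranked apart, because their models of 3009 and 4435 kb contain 37 and 84 other genes.

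Among the genes that are not protein-coding, the lincRNA genes 2210406O10Rik, C030034L19Rik and Gm14005 had 2 bins each and led. In 2210406O10Rik both bins touched (chr5:36790001-36800000) and held 313 and 1445 exon bases. The bins of C030034L19Rik (chr3:9430001-9440000) also held 5000 and 3789 bases of 3′ UTR of another gene, so a change there cannot be assigned to the lincRNA. Gm14005 had 11 MEF-listed intron bins besides. Another 122 non-coding genes had 1 bin each, 1110050K14Rik being the first of these by name.

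Most of the bins did not touch one another. 1614 stood alone among their own kind, 74 pairs touched, and 6 runs had 3 touching bins. Still, 166 of the 1780 (9.33%, 8.01% to 10.8%) touched another of them, while 2.23% of all exon bins touched one. The run with the most CpG was that of Slc4a8 (chr15:100605001-100620000, mean 21.3 CpG per kb), followed by Cabp1, a neuronal calcium-binding protein (chr5:115625001-115640000, 20.4). The others lay in Mylk (chr16:34920001-34935000, 14.5), Kcnk5, a two-pore domain potassium channel (chr14:20955001-20970000, 14.3), Slc1a3 (12.1) and Ddc, the decarboxylase that makes dopamine and serotonin (chr11:11715001-11730000, 10.7). The runs of Kcnk5 and Ddc went on into 1 more MEF-listed bin that is no member. All 3 exon bins of Kcnk5 were members. Members are by rule absent from the ES list, and the added bins beside the Kcnk5 and Ddc runs were not ES-listed either.

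Counting MEF-listed bins of any kind, 344 of the 1780 bins (19.3%, 17.5% to 21.2%) touched another, against 4.21% of all exon bins. Intron bins on the MEF list only did so in 23.4% (21.8% to 25.03%). An ES-listed bin lay directly beside 154 (8.65%, 7.39% to 10.0%), against 6.24% of all exon bins. In the ES list, 11.4% of exon bins found there only touched another ES-listed bin.

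The bins were rich in CpG. Their median was 12 CpG per kb (quartiles 9.8 and 15.2, range 3 to 40.4), against 9.4 in all exon bins. In intron bins on the MEF list only the median was 10.6, and in exon bins on the ES list only 13.4. Median GC content was 46.6%, against 43.3% in all exon bins, and the ratio of observed to expected CpG had a median of 0.226, against 0.200. When the exon bins were divided into 10 equal groups by CpG density, group 1, the sparsest, had 0.231% of its bins on the MEF list only (0.141% to 0.357%). Group 5 had 1.92%, group 7 had 3.18% (2.82% to 3.57%) and group 10, the densest, 3.72% (3.33% to 4.14%). The intervals of groups 7 to 10 overlapped between neighbours, as did those of groups 1 and 2, 3 and 4, 5 and 6, and 6 and 7. The ES-only share was 0.162% in group 1, 2.06% in group 5, 4.01% in group 7 and 8.31% in group 10 (7.73% to 8.91%). The MEF-only share of the densest exon bins thus lay below their ES-only share, with intervals apart, while in group 5 the intervals overlapped.

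**Figure D2:**
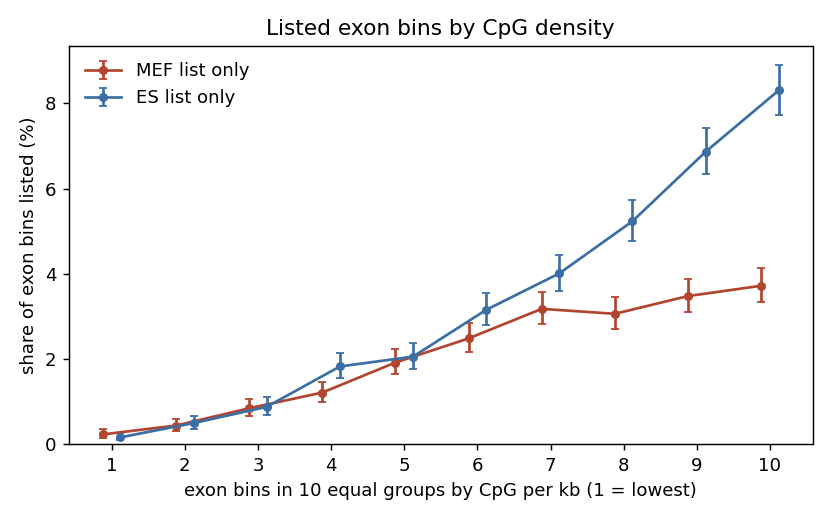
Share of exon bins on the MEF list only (red) and on the ES list only (blue) in 10 equal groups of exon bins by CpG per kb; bars are exact 95% binomial intervals. The MEF share lies between 3.06% and 3.72% in groups 7 to 10, whereas the ES share reaches 8.31% in group 10.

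At the CpG-rich end the 5 densest bins had 35.6 to 40.4 CpG per kb. They held exons of 2810410L24Rik, of Pdcd4, an inhibitor of translation, of Egr2, a zinc finger transcription factor, of Hif1a, the oxygen-regulated subunit of the HIF transcription factor, and of Hoxb3 with its overlapping transcript Hoxb3os. All 5 lay within 1 kb of the start of another annotated transcript. In Pdcd4 the bin (chr19:53975001-53980000) lay 8280 bases from the nearest gene start and held 138 bases of 5′ UTR. In Hif1a the bin (chr12:75005001-75010000) held 386 bases of 5′ UTR and 35 coding bases. At the CpG-poor end stood the olfactory receptor gene Olfr1243 with 3 CpG per kb, and Cyp2c65, a cytochrome P450 gene, and Rab11fip2, a RAB11 effector gene, with 3.6 each. The bins with the most coding bases held exons of Igfn1 (3088 coding bases), Plxna3 (2766), Fam83h (2711), Cep250 with another gene (2681 together) and Bcl9 (2500).

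Coding sequence was present in 1455 of the 1780 bins (81.7%, 79.9% to 83.5%), against 86.8% of all exon bins and 88.9% of exon bins on the ES list only. Within CpG groups 1 to 5 the share was 80.3% (76.1% to 84.1%), against 85.4% of all exon bins. It was 78.7% (75.6% to 81.5%) against 87.0% in groups 6 to 8, and 86.4% (83.4% to 89.0%) against 90.2% in groups 9 and 10. Bins whose exons belonged to non-coding transcripts only made up 9.38% (8.07% to 10.8%), against 6.17% of all exon bins and 4.76% on the ES list only. A further 8.88% held UTR without coding bases.

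Set against all exon bins, 5′ UTR was more frequent in the bins and 3′ UTR less frequent, although in number more bins held 3′ UTR (455) than 5′ UTR (320). 5′ UTR lay in 17.98% of the bins (16.2% to 19.8%), against 12.7% of all exon bins and 12.96% on the ES list only. 3′ UTR lay in 25.6% (23.6% to 27.7%), against 30.7% of all exon bins and 34.5% on the ES list only. The last exon of the main transcript was met in 22.1% (20.2% to 24.1%), against 23.9% and 27.8%. Although every bin was away from the start of its gene, 439 of the 1780 (24.7%, 22.7% to 26.7%) lay within 1 kb of the start of another transcript, against 19.4% of all exon bins. The ES-only exon bins had nearly the same share, 24.6%. Within CpG groups 1 to 5 the shares were 18.2% in MEF-only bins, 18.8% in ES-only bins and 15.2% in all exon bins. In groups 6 to 8 they were 21.7% in MEF-only bins, 23.0% in ES-only bins and 19.95% in all exon bins. In groups 9 and 10 they were 32.4% (28.8% to 36.3%) in MEF-only bins, 27.95% in ES-only bins and 29.0% in all exon bins. By position along the gene the bins were spread like exon bins at large, with 37.7% of midpoints in the last 20% of the gene (all exon bins 38.4%) and 8.03% in the first 20% (7.16%).

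**Figure D3:**
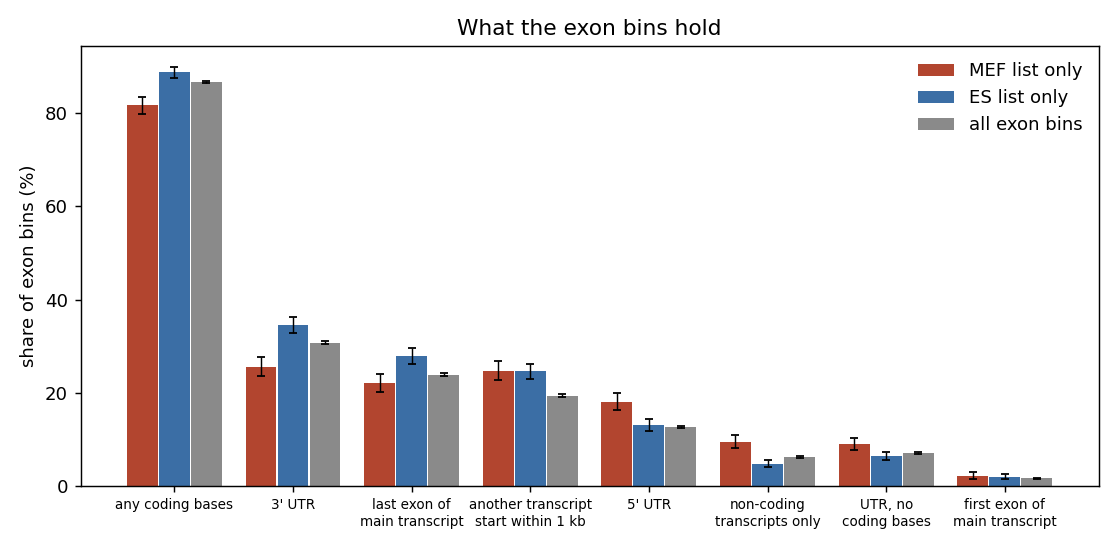
Share of exon bins that hold each feature among bins on the MEF list only (red), on the ES list only (blue) and all exon bins (grey); bars are exact 95% binomial intervals. Coding bases and 3′ UTR are less frequent in MEF-only bins than in both other sets, and 5′ UTR and non-coding transcripts more frequent.

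Repeated sequence was scarce in the bins. Over 20% of sampled 32-base words occurred elsewhere in the genome in 37 of the 1780 (2.08%, 1.47% to 2.85%), against 9.36% of all exon bins and 3.22% on the ES list only. Whether repeats affected which bins were listed was not tested.

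The bins were unevenly spread over the chromosomes. On chromosome 19, 125 of 2478 exon bins were on the MEF list only (5.04%, 4.22% to 5.98%), and on chromosome 15, 117 of 3280 (3.57%, 2.96% to 4.26%). On chromosome 12 the share was 0.844% (0.561% to 1.22%), with 28 bins, and on chromosome X 0.259% (0.118% to 0.491%), with 9. If each CpG group had the share it had over the whole genome, chromosome 19 would hold 56.7 bins, chromosome 15 74.6, chromosome 12 69.8 and chromosome X 35.3. The bins that are not exon bins followed the same order, with 3.82% of them on the MEF list only on chromosome 19, 2.99% on 15, 0.857% on 12 and 0.149% on X. The ES-only share of exon bins was 3.75% on chromosome 19, 3.84% on 15, 3.25% on 12 and 0.172% on X. Without chromosome 19 the share of exon bins was 1.97%. Of the 23 genes with 4 or more bins, with Fgfr2 ranked apart, 15 lay on chromosomes 4, 6, 15 and 19. These chromosomes were singled out because the leading genes lay there, so the count is no support for an uneven spread. They hold 5757, 4784, 3280 and 2478 of the 86546 exon bins. On chromosome 4 the MEF-only share was 2.17%, near that of all exon bins, and on chromosome 6 it was 2.61%. Whether the chromosomes differ between the cultures was not tested.

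**Figure D4:**
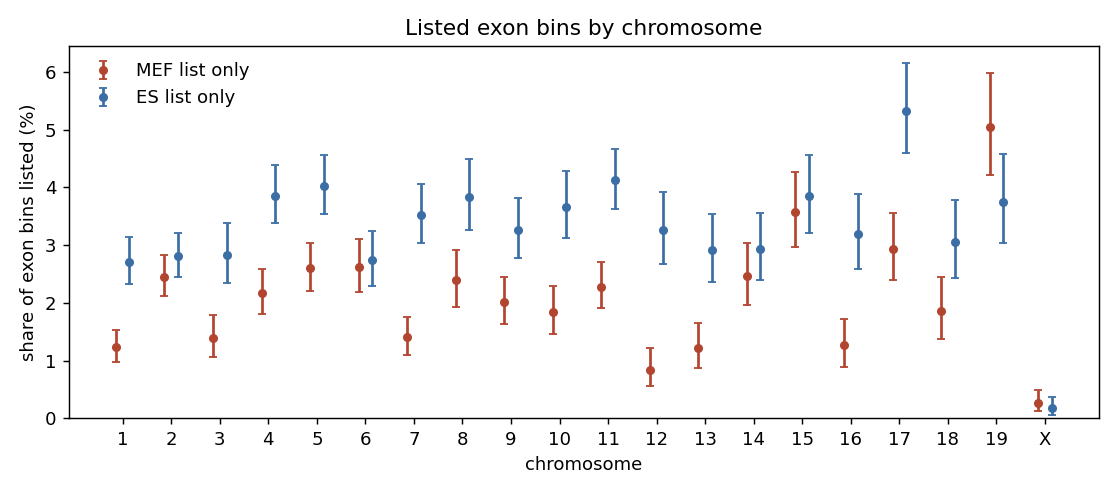
Share of each chromosome's exon bins on the MEF list only (red) and on the ES list only (blue); bars are exact 95% binomial intervals. The MEF share spans 0.844% on chromosome 12 to 5.04% on chromosome 19 among the autosomes.

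Gene families that build and remodel the extracellular matrix are of interest because fibroblasts make this matrix. The 18 gene lists were drawn up with results of these data known, so their shares describe the lists and support nothing further. Of 595 exon bins of the 43 collagen genes, 23 were on the MEF list only (3.87%, 2.47% to 5.74%), against 2.06% of all exon bins. They lay in 13 genes, led by Col14a1 and Col6a6 with 4 each. Col14a1 codes for a fibril-associated collagen, and its bins were spread along the gene, from chr15:55190001-55195000 to the last exon at chr15:55350001-55355000. In Col6a6, a collagen VI chain, the bin at chr9:105685001-105690000 held 1218 coding bases. Col17a1, a transmembrane collagen of hemidesmosomes, had 3, and Col27a1, a fibrillar collagen, had 2. The median CpG density of the collagen exon bins was 9.2 per kb. The count that the shares of like CpG groups would give was 11.8, and from the shares of the chromosomes 11.6.

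The ADAMTS and ADAMTS-like genes, secreted proteases of the matrix and their relatives, had 14 of 257 exon bins on the MEF list only (5.45%, 3.01% to 8.97%). Besides Adamtsl1 these were Adamts16 and Adamts20 with 2 each and 5 genes with 1, Adamts14 among them. Like CpG groups would give 5.21. In the fibrillin, fibulin and elastic fibre genes the count was 10 of 197 (5.08%, 2.46% to 9.14%), where like CpG groups would give 4.86. Fbn1, which codes for fibrillin-1, had 4 bins in 2 touching pairs (chr2:125180001-125190000 and chr2:125205001-125215000), all coding. Loxl1, a lysyl oxidase of elastic fibres, had 3 of its 4 exon bins listed, the one at chr9:58155001-58160000 holding 46 CpG in 508 coding bases. Emilin2 and Fbln1 had 1 each. Laminin genes had 2 of 170 (1.18%, 0.143% to 4.19%). Integrin genes had 1 of 262, in Itgb6 (0.382%, 0.00966% to 2.11%), where like CpG groups would give 5.79.

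Among signalling families, the WNT ligands with their frizzled receptors and secreted antagonists had 7 of 75 exon bins on the MEF list only (9.33%, 3.84% to 18.3%). Their exon bins were CpG-dense, with a median of 13.6 per kb, and like CpG groups would give 2.22. The ligand gene Wnt11 had 2 of its 4 exon bins listed, 1 of them over its last exon. The receptor gene Fzd4 had its only exon bin listed (chr7:96555001-96560000), with 1326 coding bases. The antagonist gene Sfrp1 and the ligand gene Wnt10a had 1 each. TGF-beta and BMP pathway genes were near the background, with 6 of 231 (2.60%, 0.959% to 5.57%). The receptor genes Acvr1 and Acvrl1, the latent TGF-beta binding protein gene Ltbp1 and the transducer gene Smad1 had 1 each. Semaphorin and plexin genes had 4 of 240 (1.67%), 1 each in Plxna1, Plxna3, Sema3g and Sema6a. Voltage-gated calcium channel genes had 12 of 286 (4.196%, 2.19% to 7.21%). Of these 6 were in Cacna1c, while Cacna2d3 and Cacnb4 had 2 each and Cacna1g 1.

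Of the other lists, receptor protein tyrosine phosphatase genes had 8 of 334 (2.40%; Ptpru 3, Ptprf and Ptprm 2 each, Ptprz1 1). ARHGEF and ARHGAP genes, regulators of small GTPases, had 11 of 479 (2.30%; Arhgap24 2, Arhgap10, Arhgap18 and Arhgap22 1 each). Myosin heavy chain genes had 3 of 124 (2.42%; Myh9 2, Myh10 1), and Zfp zinc finger genes had 14 of 890 (1.57%; Zfp395, Zfp423, Zfp618 and Zfp704 2 each). Imprinted genes had 6 of 171 (3.51%, 1.298% to 7.48%), 3 of them in Grb10, an adaptor of insulin receptor signalling, and 1 each in Gnas, Sgce and Trappc9. SNF2 remodeler genes had 5 of 356 (1.40%), with 2 in Smarca2 and 1 each in Btaf1, Chd7 and Ercc6, and none in Hells. DNA methylation and hydroxymethylation genes had 2 of 98 (2.04%, 0.248% to 7.18%), in Dnmt3a and Cxxc5. Hox genes had 1 of 17, in Hoxb3, and olfactory and vomeronasal receptor genes 2 of 499 (0.401%), in Olfr1243 and Olfr544. Receptor exon bins had a median of 3.8 CpG per kb, and like CpG groups would give 2.43.

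The ES-only shares of the same lists are read against the 3.3% of all exon bins. They were 1.51% for collagen genes (9 bins), 3.50% for ADAMTS genes (9) and 3.05% for elastic fibre genes (6). WNT and frizzled genes had 2.67% (2) and calcium channel genes 2.80% (8). These lists lay near or below 3.3%, but their counts are small. The 3.3% also takes no account of CpG density, and no ES-only count from like CpG groups was made. Integrin genes had 5.73% (15), TGF-beta and BMP genes 5.63% (13), semaphorin and plexin genes 5.00% (12), laminin genes 3.53% (6), imprinted genes 6.43% (11) and DNA methylation genes 10.2% (10). The share was 4.38% for Zfp genes (39), 3.55% for ARHGEF and ARHGAP genes (17), 2.99% for phosphatase genes (10), 2.25% for SNF2 genes (8), 1.61% for myosin genes (2) and 11.8% for Hox genes (2). No olfactory or vomeronasal receptor exon bin was on the ES list only. For the lists not given above, the MEF-only counts that like CpG groups would give were 6.91 for calcium channels, 3.50 for laminins, 5.82 for TGF-beta and BMP, 4.79 for semaphorins and plexins, 6.35 for phosphatases and 11.4 for ARHGEF and ARHGAP. They were 3.15 for myosins, 18.5 for Zfp, 3.65 for imprinted, 6.998 for SNF2, 2.69 for DNA methylation and 0.572 for Hox genes.

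**Figure D5:**
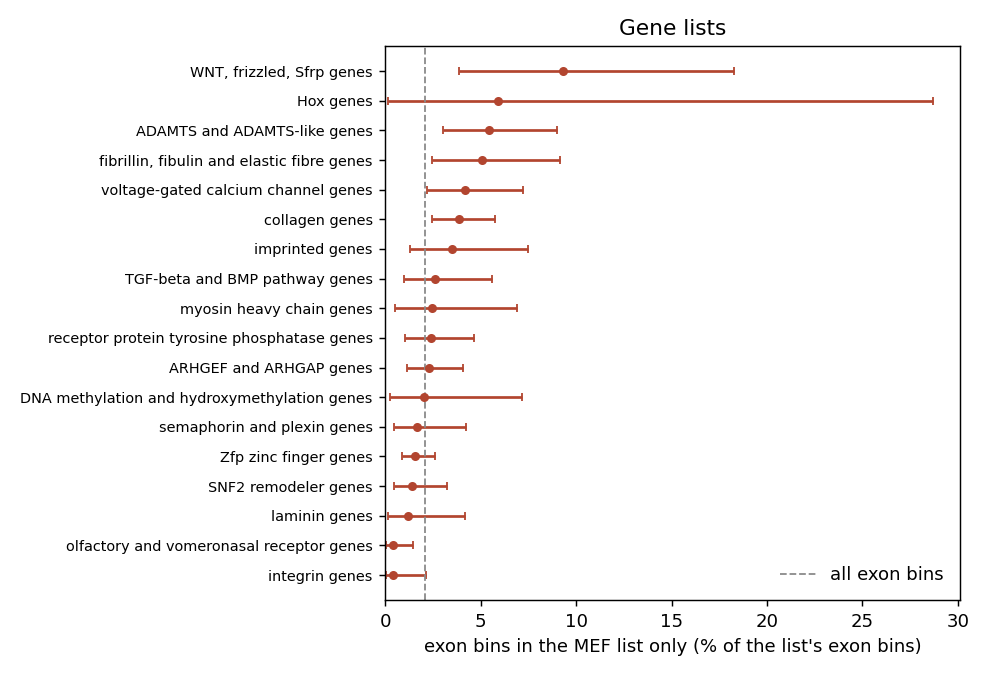
Share of each gene list's exon bins on the MEF list only, with exact 95% binomial intervals; the dashed line is the 2.06% of all exon bins. The intervals of the WNT, ADAMTS, elastic fibre, calcium channel and collagen lists lie above the line, and that of the olfactory and vomeronasal receptor list lies below it. The line takes no account of the CpG density of a list.

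At the limits of the rule, the members nearest to a gene start lay 1006, 1010 and 1011 bases away, in bins with exons of Xrcc5, Pdgfa and Gramd1b. The MEF-only bins with exon bases just inside the window, which are no members, lay 997, 984 and 962 bases from a start, at Gm14014, Dppa5a and Pak6. The members with the least exon sequence held 6, 7 and 8 exon bases (Apbb2, Arsb and Ccdc6). The MEF-only intron bins nearest to an exon lay 1, 4 and 4 bases from it (Rasgrp3, Rapgef4 and Pou2f3). Fewer than 100 exon bases were found in 228 of the 1780 bins (12.8%), against 10.8% of all exon bins. Exons of more than 1 gene were found in 72 (4.04%), against 3.40% of all exon bins.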

How the data were processed

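5hmC-bearing DNA of 1 library per group was captured and sequenced. The names BWA and SAMtools 1.3.1 and the build mm9 come from the submitters' processing notes. Of the counting, the calling program, its threshold and any input, nothing is given in the sources used here. The lists deposited by the authors give positions and other labels, not levels: a chromosome, start, end and running number for each 5 kb bin called differential. The reference was NCBIM37 (mm9) with GENCODE M1. No listed bin ran past a chromosome end, and the short last MEF bin of chromosome 13 ended at that chromosome's length, 120284312. Positions are printed 1-based.

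Classes used the 26195 protein_coding, lincRNA and processed_transcript genes on chromosomes 1 to 19 and X: promoter within 1 kb of a gene start, otherwise exon, intron or intergenic. Bins with under 50% determined bases were left out of the background. The main transcript of a gene is that with the most coding bases. Repeats were measured as 32-base words seen more than once, from a fixed 1 in 64. The CpG count for a list sums the share of each bin's CpG group. Counting reads is not possible from the lists, so no depth or error of 5hmC is known. The code was tested on simulated data, where 400 of 400 bins had the class of a base-by-base count. Intervals came from scipy 1.17.1, tables from pandas 2.3.3 with numpy 2.4.6, word counts from numba 0.67.0 and plots from matplotlib 3.10.9, under Python 3.11.15.

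Symbols were matched by name or by synonym in a RefSeq gene table. Genes were named by these rules: the 15 genes with the most bins (ties by share of exon bins), the longest runs, the extremes of CpG and coding bases, 4 genes per list and the leading non-coding genes. Members and lists were chosen with earlier results of these data known. Of the 18 lists, all symbols were found except in the imprinted list (36 of 38). Alternatives covered the gene start, window, exon overlap, gene models, ES neighbours and repeats. Results for some genes named by these rules are not reported here.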

Additional observations from a re-analysis of the deposited data

Results flagged for a closer look

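The MEF list holds 30 bins outside chromosomes 1 to 19 and X, which entered no comparison, 27 of them on unplaced or random sequence. The other 3 lie on the mitochondrial chromosome, which has 4 bins of this size. These 30 bins were flagged as listed bins outside the comparisons. The lists give no level, so nothing more is read from them. The ES list holds 12 such bins, 2 of them mitochondrial.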

How the results depend on the processing

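10 alternatives were tried for 6 results, and 50 of 60 values stayed within 1.5 times the reported count or within the interval of the reported share or median. With an exon required at the bin midpoint, 226 bins in 245 genes remained, against 1780 in 1508. Their share of exon bins was 1.85%, their median CpG density 12.6 per kb, and 12.8% touched another MEF-listed bin. With the start of every transcript used for the promoter window, the share of exon bins was 1.92% and the share with coding bases 84.9%. With protein_coding genes only, 86.1% held coding bases. With the bins that have an ES-listed bin beside them left out, 1626 bins remained, 1.88% of all 86546 exon bins. Here only the listed bins were left out and the background was kept whole, so this share could only fall. Without repeat-rich bins, left out of the listed bins and the background alike, the share of exon bins was 2.22%. Those changes follow from which bins each rule admits. No paired analysis was possible because each group has 1 library and the lists hold no value per library. A stricter calling threshold could not be tried, since the lists carry no score. The unknown depth limits every statement on absence from a list.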
